A study of Columba livia with 10 samples.

Results

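The red blood cells of birds keep their nucleus and go on carrying messenger RNA in the circulation, so blood held in a piece of tissue adds red cell transcripts to its RNA. Genes of nucleated red blood cells were followed here as a sign of blood in the cerebellum, with 7 members looked up by symbol among the 22547 genes of the count tables: SLC4A1, ANK1, HEMGN, ALAS2, GATA1, TAL1 and RHAG. Of these, 5 have a row under their symbol, and ALAS2 and GATA1 were not analysed here.

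The cerebellum came from racing homers (Columba livia), domestic pigeons bred for homing. After a competition over 300 km, 5 birds were killed on their return (race), and 5 birds of like age from that loft that had rested during the day were the controls. All were kept on a competition feeding schedule and trained by the widowhood method, and were sedated and killed by cervical dislocation. The labels give no age in days, no sex and no account of washing blood out of the vessels. Each library is labelled as a separate cerebellum sample.

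Gene counts summed to between 17953704 and 23344086 reads per library, and over all 45 pairs of libraries the chi-square was at least 26.04 per gene, well above sampling noise. The labels are not of one piece: table names and sample titles carry different library numbers in 9 of 10 samples. Each table was given the group of the record it is filed under, and 6 tables would change group if the titles were used. Of 195 W-linked genes, carried by female birds, 92 to 94 reached a level of 1 CPM (reads of a gene scaled to a common library total) in control 3, control 4 and control 5. In control 1, control 2 and all race libraries 24 to 32 did. Markers of the labelled tissue were present in every library, among them PAX6, ZIC1 and the cerebellin gene CBLN1, which had lowest levels of 48.7, 119 and 637 CPM. The libraries were not alike in tissue markers. The summed level of cerebellar neuron genes was lowest in control 4, at 2811 CPM, against 3747 to 5346 CPM in the other libraries.

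In a red cell the anion exchanger band 3, made by SLC4A1, trades bicarbonate for chloride and thereby helps carry carbon dioxide to the lungs. Ankyrin-1, made by ANK1, ties band 3 to the spectrin skeleton under the membrane, and RHAG encodes an ammonia-conducting membrane glycoprotein of the Rh complex. HEMGN encodes hemogen, a nuclear protein of blood-forming cells, and ALAS2 the first enzyme of haem synthesis in red cells. GATA1 and TAL1 are transcription factors that switch these genes on in red cell precursors. Not every member is restricted to blood: in the mouse, ANK1 is also made by neurons of the cerebellum, and TAL1 by endothelial cells and by some GABAergic neurons of the midbrain and hindbrain.

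SLC4A1 averaged less in the cerebellum of birds that had flown than in rested birds, yet the difference did not pass over all genes, and the rested birds differed widely among themselves. Its level was 38.1, 21.4, 25.03, 5.90 and 8.12 CPM in control 1 to control 5. The race libraries, in order from 1 to 5, gave 12.96, 9.14, 8.35, 3.82 and 6.98 CPM. Control 1, control 3 and control 2 stood above every race library, and control 4 and control 5 lay within the race range. All 5 race libraries lay below the control median.

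The mean of SLC4A1 was 19.7 ± 13.2 CPM in rested and 8.25 ± 3.33 CPM in raced birds (SD, n = 5 each). The race-minus-control log2 fold change was -1.26 ± 0.49 (SE, 95% interval -2.32 to -0.20), with an unadjusted p of 0.0240 and an adjusted p of 0.339 by edgeR's quasi-likelihood test. SLC4A1 was thus the 1 member of 5 at an unadjusted p under 0.05, a level reached by 13.3% of the 14172 genes tested, and by 7.14% on the lower side. In bulk tissue, fewer red cells and less RNA per red cell cannot be told apart. Reads from SLC4A1 numbered 81 to 706 per library, so counting alone would spread the control values by 1.02 CPM. The observed spread of 13.2 CPM between control birds is far larger.

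**Figure D1:**
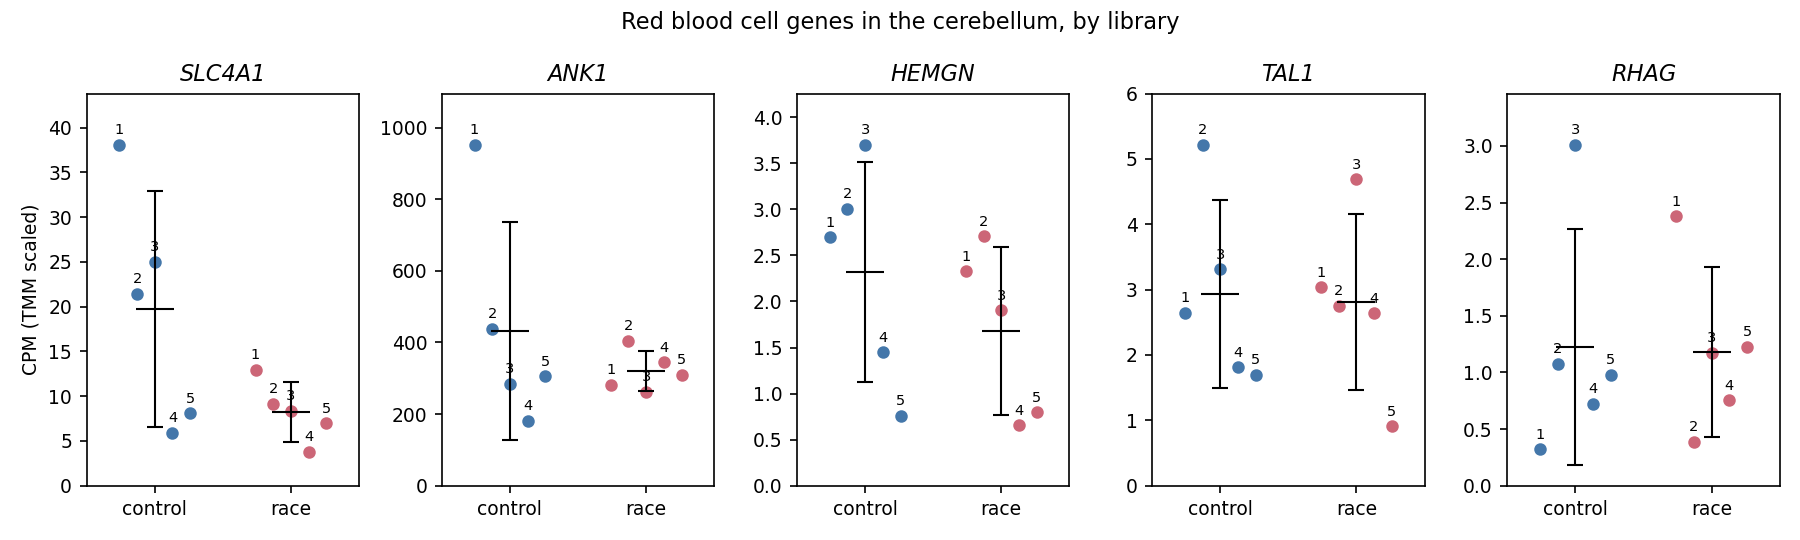
Level of the 5 red blood cell genes with a row in the tables, in TMM-scaled CPM (linear axes from 0), for 5 control and 5 race libraries; each point is a library with its replicate number, and the black bar is the mean with 1 SD. For SLC4A1, control 1, control 2 and control 3 sit between 21.4 and 38.1 CPM, above every race library, while control 4 and control 5 sit at 5.90 and 8.12 CPM among the race libraries.

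With all 10 libraries and no covariate, no member passed an adjusted p of 0.05. In that comparison 0% of the 14172 genes tested passed by edgeR, and 1.9% of the 13742 genes with an adjusted p passed by DESeq2. The log2 fold change was negative in all 5 members and in 52.6% of all genes tested, and its median was -0.43 over the members and -0.03 over all genes. In none of the 5 did the groups stand apart without overlap, which 4.33% of genes did. Leaving out 1 library at a time put the unadjusted p of SLC4A1 above 0.05 in 3 of 10 cases, all with the same sign. Without control 1 the log2 fold change was -0.90 (unadjusted p = 0.0745). Without control 3 it was -1.16 (unadjusted p = 0.0501) and without race 4 it was -1.09 (unadjusted p = 0.0525).

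The 3 control libraries that express W-linked genes differed in SLC4A1, at 25.03 CPM in control 3 and 5.90 and 8.12 CPM in control 4 and control 5. When they were left out, race was compared with control 1 and control 2 alone, and SLC4A1 passed with a log2 fold change of -1.85 ± 0.39 (edgeR adjusted p = 0.0177). ANK1, at 952 CPM in control 1 and 439 CPM in control 2, passed in the same fit at -1.11 ± 0.28 (adjusted p = 0.0268). So did 23.2% of the 14697 genes tested there. With a term for W-linked expression 30.6% of genes passed, and SLC4A1 and ANK1 stood at -1.85 and -1.12. All race libraries were like control 1 and control 2 in W-linked expression. The W term thus also set race against control 1 and control 2, and its values are no separate support. With groups taken from the titles, SLC4A1 stood at -0.85 (unadjusted p = 0.145).

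**Figure D2:**
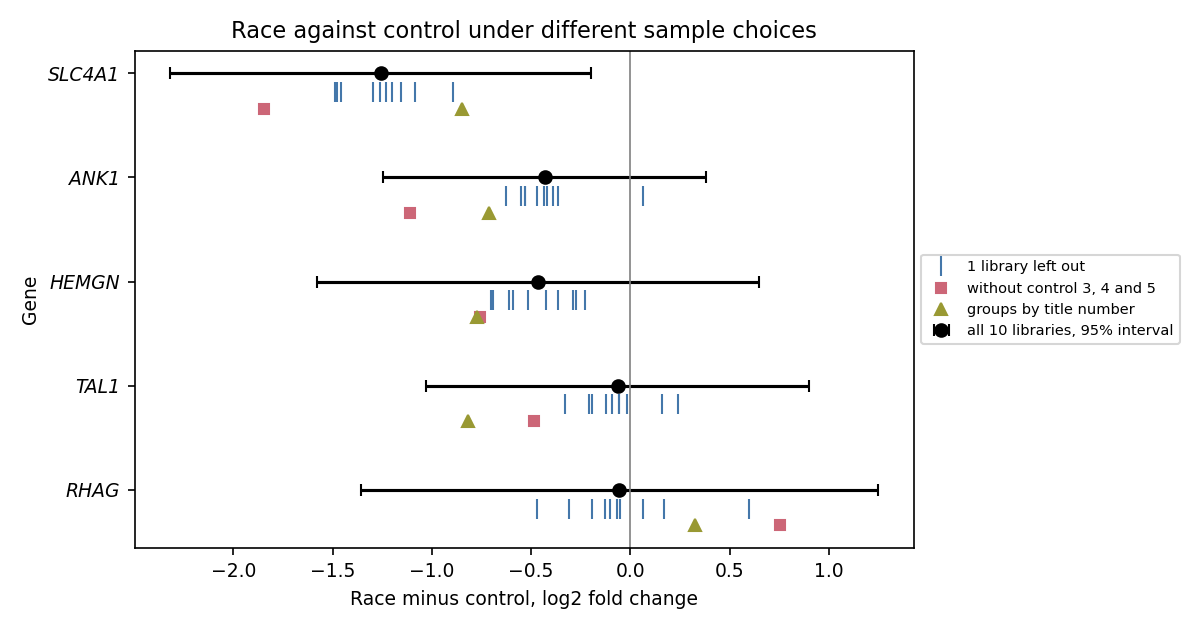
Race-minus-control log2 fold change of each gene: black points with a 95% interval use all 10 libraries, blue ticks leave out 1 library at a time, red squares leave out control 3, control 4 and control 5, and green triangles take groups from the title numbers. SLC4A1 and HEMGN stay below 0 under every sample choice shown, ANK1 lies above 0 without control 1, and TAL1 and RHAG lie on both sides of 0.

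HEMGN, the hemogen gene, is the Z-linked member. Its level was 2.698, 3.01, 3.70, 1.45 and 0.758 CPM in control 1 to control 5. The race values were 2.33, 2.71, 1.91, 0.660 and 0.799 CPM. High and low libraries occurred in both groups, with control 5, race 4 and race 5 the lowest, and the groups overlapped through most of their range. The log2 fold change was -0.46 ± 0.51 (95% interval -1.58 to 0.65, edgeR adjusted p = 0.669), and the interval includes both a more than 2-fold lower level and no difference. With 14 to 75 reads per library, counting alone would give a control SD of 0.349 CPM beside the 1.20 CPM observed.

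RHAG, the Rh-associated glycoprotein gene, did not share the pattern of SLC4A1. It stood at 0.324, 1.08, 3.01, 0.725 and 0.981 CPM in control 1 to control 5. Race 1 to race 5 had 2.38, 0.387, 1.17, 0.754 and 1.23 CPM. Control 3 and race 1 were the highest, and control 1, which had the highest SLC4A1, had the lowest RHAG. That lowest value rests on 6 reads, with an exact 95% Clopper-Pearson interval of 0.119 to 0.705 CPM, which covers counting error only. The interval of control 3, from 2.30 to 3.87 CPM, lies wholly above it. The log2 fold change of RHAG was -0.05 ± 0.60 (95% interval -1.36 to 1.25, edgeR adjusted p = 0.974).

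TAL1, a basic helix-loop-helix factor of blood and vessel precursors, stood at 2.64, 5.22, 3.31, 1.81 and 1.69 CPM in control 1 to control 5. The values of race 1 to race 5 were 3.04, 2.76, 4.69, 2.64 and 0.906 CPM. Control 2 and race 3 were the highest and race 5 the lowest, so each group spanned much of the other. The log2 fold change was -0.06 ± 0.44 (95% interval -1.03 to 0.90, edgeR adjusted p = 0.959).

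ANK1, the ankyrin gene, was counted 3493 to 17654 times per library and took 89.0% to 97.8% of the summed CPM of the 5 members, a share of reads that also grows with transcript length. Its level was 952, 439, 285, 181 and 306 CPM in control 1 to control 5. Race libraries 1 to 5 gave 283, 405, 263, 345 and 310 CPM. Control 1 stood far above the other 9 libraries, control 4 was the lowest, and the race libraries lay close together between them. The log2 fold change was -0.43 ± 0.37 (95% interval -1.24 to 0.38, edgeR adjusted p = 0.587), and without control 1 it was 0.06. Because ANK1 takes most of these reads, the 4 remaining members were also summed alone. That sum was 43.8, 30.7, 35.1, 9.89 and 11.6 CPM in control 1 to control 5, and 20.7, 14.99, 16.1, 7.87 and 9.91 CPM in race 1 to race 5. SLC4A1 was the largest part of it in every library, and the sum nearly repeats the order seen for that gene. Control 1, control 3 and control 2 stood above race 1. In race 4 SLC4A1 gave 3.82 of the 7.87 CPM and TAL1 2.64 CPM. By plain library size, without TMM, the sum was 34.7 CPM in control 1 and 36.3 CPM in control 3.

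Whether the members moved together from bird to bird was compared over the 10 libraries on log2 CPM, in 10 pairs. SLC4A1 and HEMGN gave Pearson's r = 0.79 (permutation p = 0.00779, 0.0779 after Benjamini-Hochberg adjustment over the pairs) and Spearman's rho = 0.85 (permutation p = 0.00290, adjusted 0.0290). Without the 2 libraries farthest from the median of SLC4A1 their r was 0.77. HEMGN and TAL1 gave r = 0.66 (permutation p = 0.0351, adjusted 0.149) and rho = 0.73 (permutation p = 0.0205, adjusted 0.102). Without the 2 libraries farthest from the median of HEMGN their r was 0.79.

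SLC4A1 and ANK1 gave r = 0.63 (permutation p = 0.0448, adjusted 0.149) but rho = 0.38 (permutation p = 0.277, adjusted 0.553). Their r was 0.42 without the 2 farthest libraries, a cut that also narrows the range of SLC4A1. RHAG showed no detectable relation to SLC4A1, with r = 0.08 (permutation p = 0.827, adjusted 0.827) and rho = 0.12 (permutation p = 0.759, adjusted 0.843), or 0.37 for r without the 2 farthest libraries. RHAG and ANK1 gave the 1 negative value, r = -0.54 (permutation p = 0.113, adjusted 0.282) and rho = -0.45 (permutation p = 0.192, adjusted 0.479). Their r was -0.63 without the 2 libraries farthest from the median of ANK1. The other 5 pairs lay between r = 0.13 and r = 0.41, with adjusted p from 0.477 to 0.808. Differences between the groups are part of these values, so each gene was also centred on its group mean, a choice made after seeing the data, and the libraries were permuted within groups. SLC4A1 and HEMGN then gave r = 0.79 (exact permutation p = 0.0115, adjusted 0.115) and rho = 0.71 (exact permutation p = 0.0315, adjusted 0.315). HEMGN and TAL1 gave r = 0.67 (exact permutation p = 0.0458, adjusted 0.229) and rho = 0.62 (exact permutation p = 0.0781, adjusted 0.344). For SLC4A1 with ANK1, r was 0.65 (exact permutation p = 0.119, adjusted 0.3925) and rho 0.42 (exact permutation p = 0.303, adjusted 0.607). No pair passed after adjustment within groups, where the adjusted p of r ran from 0.115 to 0.793.

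For each member the 3 genes with the most similar profile were sought by Pearson's r over the 10 libraries, among 12605 genes whose log2 CPM averaged 1 or more. These values describe the libraries and carry no test. For SLC4A1 they were LOC102090541 (r = 0.94), LOC135579297 (r = 0.92) and LOC102090851 (r = 0.91), none of which has a name in the tables. They lie on chromosomes 1, 4 and 15 of assembly bColLiv1.pat.W.v2. In that assembly's gene order LOC102090851 is the direct neighbour of HBAD, the gene for the alpha-D chain of haemoglobin. HBAD itself had 2 reads in control 5 and 0 in the other 9 libraries, where a count of 0 allows up to 0.141 to 0.170 TMM-scaled CPM (3 reads, counting error only). The neighbour on its other side, LOC102090486, had 0 to 2 reads. Haemoglobin genes listed without a symbol could not be looked for by name, so HBAD is no measure of haemoglobin RNA as a whole.

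LOC102090851 was counted 5615 to 26778 times per library. It stood at 1067, 577, 1322, 319 and 406 CPM in control 1 to control 5. Its race values were 553, 289, 403, 265 and 352 CPM. As for SLC4A1, control 1 and control 3 were the highest, control 4 and control 5 lay among the race values and race 4 was the lowest. The log2 fold change was -0.99 ± 0.38 (unadjusted p = 0.0231, edgeR adjusted p = 0.339).

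LOC102090541 stood at 1022, 673, 1116, 254 and 398 CPM in control 1 to control 5. In race 1 to race 5 it stood at 466, 220, 392, 174 and 296 CPM. The same 3 control libraries were the highest as for SLC4A1, race 4 was again the lowest, and the log2 fold change was -1.16 ± 0.40 (unadjusted p = 0.0140, edgeR adjusted p = 0.326). Both genes were chosen for their likeness to SLC4A1, so their lower race values are no separate support for its difference. LOC135579297 averaged 10.2 ± 6.01 CPM in rested and 6.78 ± 1.13 CPM in raced birds (SD, n = 5 each).

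**Figure D3:**
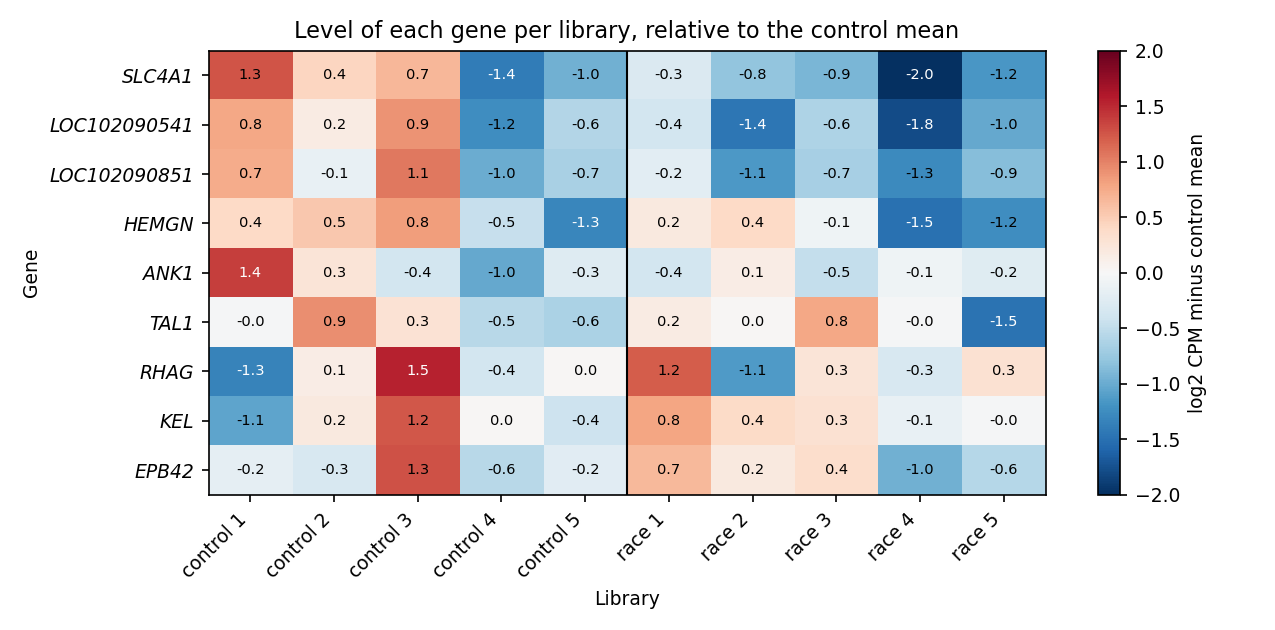
Log2 CPM of each gene minus its control mean, in every library, on a colour scale from -2 to 2 with each cell's value printed. SLC4A1, LOC102090541 and LOC102090851 share high values in control 1 and control 3. They lie below the control mean in control 4, control 5 and every race library, and are lowest in race 4. RHAG and KEL are lowest in control 1 and highest in control 3.

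The other members had neighbours of other kinds. For ANK1 they were ITPR3, a calcium release channel, MTCL2, a microtubule-binding protein, and EHD2, a membrane-shaping ATPase, each at r = 0.99. High r values were common for ANK1, and LOC135579297, at r = 0.80, ranked only 1831st of 12611 genes by likeness to it. ANK1 was by far highest in control 1, and how far its likeness to these genes rests on that library was not tested. The red cell spectrin gene SPTB, which in mammals is also used by neurons, had r = 0.94 with ANK1 but ranked only 171st of 12611 genes. SPTB stood at 676 CPM in control 1, 156 CPM in the lowest control and 241 to 352 CPM in race libraries. Its log2 fold change was -0.12 ± 0.35, and 0 race libraries lay below its control median. For HEMGN the neighbours were LOC102086803 (r = 0.89), LITAF (r = 0.86) and SLC15A4 (r = 0.86), the last a lysosomal histidine and peptide transporter. SLC4A1 ranked 23rd of 12611 genes by likeness to HEMGN, while HEMGN ranked 177th and ANK1 1384th by likeness to SLC4A1. For TAL1 they were LOC102098332 (r = 0.95), the transcription factor gene BHLHE23 (r = 0.91) and PLEKHB2 (r = 0.89). For RHAG they were ENPP4 (r = 0.95), SNX5 (r = 0.92) and RCN1 (r = 0.91). KEL, which encodes the Kell blood group protein, had r = 0.77 with RHAG and 0.02 with SLC4A1.

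Lists of other genes with roles in the red cell were compared next, and their levels need not come from blood. For a list of 23 membrane and skeleton genes, 15 could be tested, of which 6 stood higher and 9 lower in race birds, at a median log2 fold change of -0.13 (-0.34 without race 1). At an unadjusted p under 0.05, 1 was lower and 0 were higher, beside 7.14% and 6.19% of all genes tested. That gene was AQP1, a water channel of red cells and of choroid plexus, at -2.30 ± 0.85 (edgeR adjusted p = 0.328), and its control mean rests on control 4, at 121 CPM against 3.08 to 15.3 CPM in the other controls. CD59, which protects cells from complement, and the exporter gene ABCG2 stood at -0.46 and -0.69 without passing. EPB42, which encodes protein 4.2, a partner of band 3, had a mean of 2.91 ± 1.94 CPM in rested and 2.67 ± 1.17 CPM in raced birds (SD, n = 5 each) and a log2 fold change of -0.13 ± 0.45. KEL stood at 0.10 ± 0.44.

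Haem synthesis genes divided evenly, with 8 of 18 positive, 10 negative and a median of -0.03. Their summed level ran only from 609 to 689 CPM over the libraries. SLC4A1 ran from 3.82 to 38.1 CPM, so these genes did not vary with it to a like degree. At an unadjusted p under 0.05, 2 were higher and 1 was lower, beside 6.19% and 7.14% of all genes tested. SLC25A38, a mitochondrial glycine carrier, stood at 0.64 ± 0.22, and ABCB10, a mitochondrial transporter needed for haem synthesis, at 0.50 ± 0.21. SLC25A37, the mitochondrial iron importer of red cell precursors, stood at -0.66 ± 0.28, with 10.6 ± 3.55 CPM in rested and 6.69 ± 1.37 CPM in raced birds (SD, n = 5 each). Every race library lay below the control median of SLC25A37. None passed over all genes (edgeR adjusted p from 0.324 to 0.356 for these 3).

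Of 8 tested genes of iron handling 4 were positive and 4 negative, with a median of -0.02. FTH1, the ferritin heavy chain, was the 1 at an unadjusted p under 0.05, at -0.49 ± 0.18. That level was reached in either direction by 13.3% of all genes tested. ACO1, an iron sensor that binds ferritin messages, and the RNA-binding protein gene PCBP2 stood at 0.27 and -0.64. ACO1, a Z-linked gene, was higher in every race library than in any control library. Groups stood apart without overlap in 4.33% of all genes tested. More W-linked genes reached 1 CPM in control 3, control 4 and control 5 than in any race library. The part of this imbalance in the differences of the Z-linked genes named here was not tested. Of 12 tested transcription factor genes of the red cell lineage 3 were positive and 9 negative, with a median of -0.12. BCL11A, known in humans for silencing fetal globin and also a gene of neurons, was the 1 at an unadjusted p under 0.05, at -1.31 ± 0.46. The same share of 13.3% over all genes applies here. BCL11A ran from 7.06 to 42.0 CPM in control and from 5.54 to 10.6 CPM in race libraries. ZFPM1, a partner of GATA1, and LDB1, an adaptor of the complex of GATA1 and TAL1, stood at -0.95 and -0.60. Both were highest in control 1. NFE2, a red cell and platelet factor, reached at most 0.213 CPM and was not tested.

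Genes of the other cells that blood and vessels bring were set beside the members. Summed levels of the thrombocyte genes in the tables ran from 27.1 to 50.6 CPM in control and from 32.3 to 50.8 CPM in race libraries, and 7 of the 10 could be tested, 2 positive and 5 negative with a median of -0.24 (0.01 with a minimum count of 30). The sign of that median changed with the sample choice, to 0.35 without control 3, control 4 and control 5, 0.69 with a W term and 0.02 with groups by title. Among them F2RL2, a Z-linked thrombin receptor gene, stood at 1.22 ± 0.32 with no overlap between groups, as in 4.33% of all genes tested. The integrin gene ITGA2B and the clotting factor gene F13A1 stood at -1.05 and -0.57. GP9, a defining platelet gene, was at 0 in some libraries of both groups and reached at most 0.284 CPM. Summed leukocyte genes ran from 70.4 to 154 CPM in control and from 74.2 to 99.9 CPM in race libraries. Of 8 tested, 3 were positive and 5 negative with a median of -0.12 (-0.01 without control 1). MPEG1, a pore-forming protein of macrophages, stood at -1.32 and the receptor genes CSF3R and CXCR4 at -1.08 and -0.70. Control 1 had 25.03 CPM of MPEG1 and 3.88 CPM of CSF3R, against at most 8.2 and 1.25 CPM in the other controls. The B cell gene CD79B was at 0 in some libraries and reached at most 0.296 CPM. The part of these cells in the SLC4A1 difference was not tested.

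**Figure D4:**
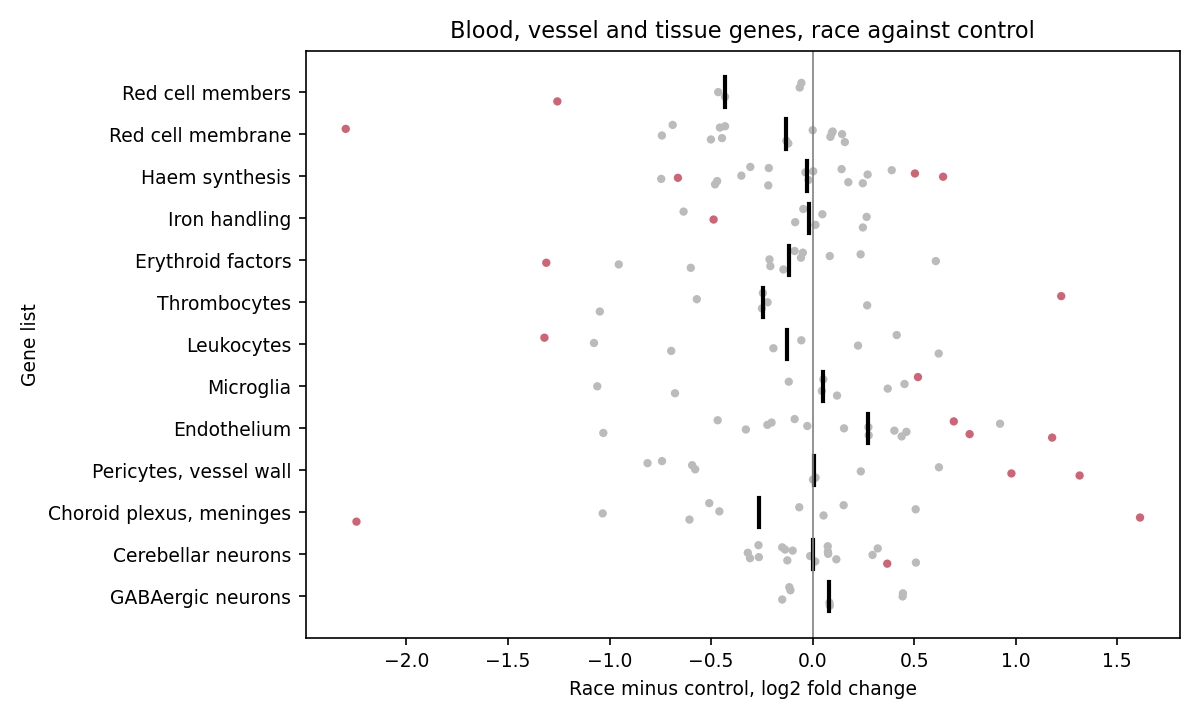
Race-minus-control log2 fold change of every tested gene in each list, with 1 point per gene, a black bar at the list's median and red points for an unadjusted p under 0.05; no gene passed over all genes by edgeR with all 10 libraries and no covariate. Medians of the members and of the membrane, haem synthesis, iron handling and erythroid factor lists lie between -0.43 for the members and -0.02 for iron handling. The endothelial median is 0.28.

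Vessel genes stood on both sides of 0. Of 17 tested endothelial genes 10 were positive and 7 negative with a median of 0.28. At an unadjusted p under 0.05, 3 were higher, beside 6.19% of all genes tested. PECAM1, an adhesion protein of endothelium and of blood cells, stood at 1.18 ± 0.35, with 24.4 ± 8.80 CPM in rested and 55.3 ± 25.3 CPM in raced birds (SD, n = 5 each). TEK, the Z-linked gene of the angiopoietin receptor, and VWF, the von Willebrand factor, stood at 0.77 and 0.70. With groups taken from the titles the endothelial median was -0.44. Pericyte and vessel wall genes had a median of 0.01 over 10 tested, and a median of -0.66 with groups by title. The potassium channel genes KCNJ8 and ABCC9 stood at 1.32 and 0.98 and CSPG4 at -0.81. For KCNJ8 the groups did not overlap, as in 4.33% of all genes tested. Microglial genes had a median of 0.05 over 9, of which 6 were positive and 3 negative. At an unadjusted p under 0.05, 1 was higher and 0 were lower, beside 6.19% and 7.14% of all genes tested. TYROBP and C1QA stood at -1.06 and -0.68 without reaching that level. Control 1 had 3.88 and 7.18 CPM of them, against at most 0.83 and 2.7 CPM in the other controls.

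Choroid plexus and meningeal genes had a median of -0.26 over 10 tested, or 0.10 without control 1. It was -0.88 both without control 3, control 4 and control 5 and with a W term, the fits in which SLC4A1 passed, and -0.93 with groups by title. KCNE2, a channel subunit of choroid plexus, stood at 1.61, the klotho gene KL at -2.25 and the collagen gene COL1A1 at -1.03. KL was at 16.1 CPM in control 4, against at most 2.95 CPM in the other controls. COL1A1 was at 31.3 CPM in control 1, against at most 6.3 CPM. Cerebellar neuron genes had a median of 0.00 over 18, of which 9 were positive and 9 negative, with PAX6, GABRA6 and RORA at 0.37, 0.51 and 0.32. Their median was -0.42 without control 3, control 4 and control 5 and -0.43 with a W term, and its part in the SLC4A1 values of those fits was not tested. GABAergic neuron genes, listed because mouse TAL1 acts in such neurons, had a median of 0.08 over 7, with GAD2, GAD1 and SLC32A1 at 0.45, 0.44 and -0.11. With all 10 libraries and no covariate, none of the genes named from these lists passed over all genes by edgeR.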

How the data were processed

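Total RNA (RNA integrity numbers 9.6 to 10.0, tissue kept at -20 °C) was read as 100 bp pairs, per the labels. The deposited values are raw counts per gene, 1 table per sample. STAR 2.7.10a, HTSeq 0.13.5, fastp 0.23.2, MultiQC 1.14 and FastQC 0.11.5 are listed, without roles or parameters, per the submitters' processing notes. The build, annotation and strand setting were not given in the sources used here. Rows naming no gene held 18.1% to 23.4% of counts and stayed out of library sizes. Without gene lengths, shares of CPM between genes are shares of reads, not of transcripts. Of the gene names, 22268 matched the RefSeq gene table of bColLiv1.pat.W.v2.

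Genes were kept by filterByExpr (minimum count 10), scaled by TMM and compared with edgeR 4.0.16 in R 4.3.3 by its quasi-likelihood test, two-sided, Benjamini-Hochberg adjusted over 14172 genes. Standard errors derive from the F statistic. Log2 CPM used a prior count of 2, and correlations 100000 permutations (scipy 1.17.1), or all 14400 arrangements within groups. The members and lists were chosen with earlier results of these data known. Named were all members, the 3 genes of smallest p per list (1 is not reported here) and the 3 of most similar profile per member; SPTB, EPB42, KEL, NPRL3, NFE2, GP9 and CD79B were singled out after their values were seen. Alternatives used limma 3.58.1 voom and DESeq2 1.42.0, other scalings, filters and sample choices. On simulated counts with 200 changed genes, 28% of those changed 2-fold and 97.0% of those changed 4-fold were recovered, with 6 false calls among 14409 genes. Those rates need not hold for genes that vary widely between birds. With all 10 libraries, AQP1 at -2.30 and KL at -2.25 did not pass (edgeR adjusted p = 0.328 and 0.337).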

Additional observations from a re-analysis of the deposited data

Results flagged for a closer look

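In each group of 5 libraries, a value was singled out where its gap to the nearest other library exceeded 0.710 of the group's range. That held for 12 of the 90 groups checked. For independent, normally distributed values chance alone gives about 1 in 20. The values here are CPM of related genes in the same libraries, many of them picked by p, so that rate does not apply directly. Among the members, control 3 had 3.01 CPM of RHAG, and the remaining controls had 0.324 to 1.08 CPM.

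Control 1 stood apart for 8 genes of the lists. These were the red cell lineage factors ZFPM1, at 99.5 CPM against at most 33.8 CPM in the other controls, and LDB1, at 218 CPM against at most 96.4 CPM. PCBP2 stood at 237 CPM against at most 104 CPM and COL1A1 at 31.3 CPM against at most 6.30 CPM. Genes of macrophages and granulocytes were also high there, with MPEG1 at 25.03 CPM, CSF3R at 3.88 CPM, TYROBP at 3.88 CPM and C1QA at 7.18 CPM, against at most 8.24, 1.25, 0.829 and 2.71 CPM in the other controls. SLC4A1 was highest in the same library, and RHAG lowest. The TMM factor of control 1 was 0.794, against 0.977 to 1.05 in the other libraries, which raises its scaled CPM. By plain library size it had 30.2 CPM of SLC4A1 and 756 CPM of ANK1, still the highest for both. Control 4 stood apart for AQP1 at 121 CPM and for KL at 16.1 CPM, against at most 15.3 and 2.95 CPM. Race 4 stood apart for KCNJ8, at 19.3 CPM against at most 8.30 CPM in the other race libraries.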

How the results depend on the processing

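No paired analysis was possible because rested and raced birds were different birds, and the labels do not match them in pairs. SLC4A1 kept its direction under all 20 alternatives, from -1.85 to -0.85, and HEMGN under all 20, from -0.77 to -0.23. With 1 library left out, SLC4A1 ran from -1.49 to -0.90, ANK1 from -0.63 to 0.065, HEMGN from -0.70 to -0.23, TAL1 from -0.33 to 0.24 and RHAG from -0.47 to 0.60, and from 0 to 1 genes and 0 members passed over all genes. ANK1 was at 0.065 without control 1. TAL1 was at 0.24 without control 2, 0.16 without race 5 and 0.043 by plain library size. RHAG was at 0.60 without control 3, 0.17 without race 2, 0.06 without race 4, 0.054 by limma voom, 0.0015 by plain library size, 0.33 with groups by title, and 0.75 both without control 3, control 4 and control 5 and with a W term. The causes were not tested.

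Genes past an adjusted p of 0.05 numbered 0 by edgeR and 261 by DESeq2, 3416 without control 3, control 4 and control 5, 4338 with a W term, 3 with groups by title and 40 without control 1 and control 4 together, a choice added after seeing the data. At an unadjusted p under 0.05 edgeR gave 1889 genes. With the mean log2 CPM of SLC4A1, HEMGN and RHAG as a covariate, used in place of a planned one that also held ALAS2 and was not run, 0 genes passed over all genes and 1383 had an unadjusted p under 0.05. SLC4A1 passed without control 3, control 4 and control 5 at -1.85 and with a W term at -1.85. ANK1 passed at -1.11 and -1.12, so that 2 members passed over all genes in each of these fits. Both fits set race against control 1 and control 2, so they are not separate results. At an unadjusted p under 0.05 there were 2 members in both, 0 by limma voom and with groups by title, and 0 to 1 with 1 library left out. RHAG, with 240 reads in all libraries together, is limited most by depth, and with a minimum count of 30 it was not tested.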

Other observations

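Control 3, 1 of the 3 libraries that express W-linked genes, was highest of all 10 libraries for HEMGN, RHAG, EPB42 and KEL, at 3.70, 3.01, 6.37 and 3.85 CPM, and second to control 1 for SLC4A1. NPRL3, a gene that lies on chromosome 15 like HBAD, was also highest there, at 50.1 CPM against 21.2 to 33.99 CPM elsewhere. Race 1 was second to control 3 for RHAG, EPB42 and KEL, at 2.38, 4.10 and 2.79 CPM. Control 1 was lowest of all for RHAG and KEL, at 0.324 and 0.701 CPM, while its SLC4A1, at 38.1 CPM, was the highest.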
